A study of Homo sapiens with 8 samples.

Results

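The DLX genes are 6 homeobox genes, DLX1 to DLX6, that lie in 3 linked pairs on chromosomes 2, 7 and 17. They were taken as a listed family, 6 of 20098 protein-coding genes annotated on chromosomes 1 to 22 and X. The genes were listed by name and not picked by their own values. The list was, however, chosen with earlier results of these data known. For each gene a window was drawn over the gene body and 2 kb upstream of its start, and the share of that window inside a ChIP-seq island was measured in every island list.

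The data came from a human lung adenocarcinoma cell line, PC9, whose cells had received either DMSO (the vehicle) or 1 μM GSK126, an inhibitor of the methyltransferase EZH2, for 5 days. D. melanogaster chromatin and an antibody to a fly-specific histone variant were added to the reactions as a reference. H3K27me3 and H3K4me3 were each mapped in 2 libraries per treatment, 8 libraries in all, and the island lists of these libraries numbered 14. All libraries came from 1 cell line, so the values speak of that line alone.

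DLX proteins are transcription factors related to Distal-less of D. melanogaster. In vertebrates they pattern the pharyngeal arches, the limbs and the ventral forebrain, where DLX1 and DLX2 drive the formation of GABAergic interneurons, and DLX5 and DLX6 act in the jaw, bone and limb. DLX3 acts in skin, hair, tooth and placenta, and DLX4 is expressed in placenta. The members of a pair point towards each other and share enhancers in the DNA between them. In cells that do not use them, such developmental genes are typical targets of Polycomb repressive complex 2, whose catalytic subunit EZH2 writes H3K27me3. H3K4me3 is the usual mark of promoters that are active or held ready, and promoters that carry both marks are called bivalent.

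All positions are in GRCh37, counted from 1. DLX1 lay at chr2:172949468-172954405 on the plus strand and DLX2 at chr2:172964166-172967628 on the minus strand, with 9.76 kb between them. DLX6 lay at chr7:96634865-96640352 on the plus strand and DLX5 at chr7:96649708-96654262 on the minus strand, 9.355 kb apart. DLX4 lay at chr17:48045952-48052323 on the plus strand and DLX3 at chr17:48067369-48072588 on the minus strand, with 15.045 kb between them. The windows were between 5.463 kb (DLX2) and 8.372 kb (DLX4) long and together held 42.036 kb.

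The start regions of DLX1, DLX2 and DLX6 are printed here because the islands over these stretches are described with the results. They are the members found in the RefSeq promoter table, 3 of 6. Each is the 250 bases before the RefSeq gene start on the gene's own strand, 5′ to 3′, with CpG dinucleotides in capitals. RefSeq gives them for GRCh38.p14, at chr2:172085257-172085556, chr2:172102851-172103150 and chr7:97005303-97005602 for the whole 300-base windows. Each window matched GRCh37 at exactly 1 place, and the printed parts were chr2:172949985-172950234, chr2:172967629-172967878 and chr7:96634615-96634864 there. RefSeq's DLX1 start lay inside the longer annotated gene used for the window.
DLX1: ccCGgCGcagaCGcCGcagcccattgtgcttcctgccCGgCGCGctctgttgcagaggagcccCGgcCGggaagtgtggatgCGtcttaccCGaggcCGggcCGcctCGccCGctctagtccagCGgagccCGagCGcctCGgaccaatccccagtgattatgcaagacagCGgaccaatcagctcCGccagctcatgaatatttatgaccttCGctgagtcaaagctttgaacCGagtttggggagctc
DLX2: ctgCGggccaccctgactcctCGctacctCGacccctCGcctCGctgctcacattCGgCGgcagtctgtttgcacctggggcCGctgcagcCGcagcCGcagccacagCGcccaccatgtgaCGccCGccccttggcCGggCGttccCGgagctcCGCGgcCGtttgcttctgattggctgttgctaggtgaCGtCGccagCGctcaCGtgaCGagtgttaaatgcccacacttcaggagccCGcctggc
DLX6: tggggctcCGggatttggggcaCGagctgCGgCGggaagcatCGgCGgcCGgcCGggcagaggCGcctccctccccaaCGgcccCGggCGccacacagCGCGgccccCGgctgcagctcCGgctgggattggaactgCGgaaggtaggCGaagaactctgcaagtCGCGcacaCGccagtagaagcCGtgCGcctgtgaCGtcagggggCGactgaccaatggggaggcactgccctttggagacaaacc

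These regions held more CpG than the median promoter. The 300-base windows held 23 CpG for DLX1, 30 for DLX2 and 30 for DLX6, and the median of 35116 RefSeq promoter windows was 14. Of all these windows, 35.8% held at least as many as DLX1, and 22.4% at least as many as DLX2 and DLX6. The ratio of observed to expected CpG was 0.887, 0.900 and 0.894 in that order, against a median of 0.579. The motif TAATT, the core that many homeodomains recognise, was absent on both strands from all 3 windows. Only 24.8% of all promoter windows held it, so its absence was common.

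With DMSO, most DLX windows lay inside H3K27me3 islands. In the lists of the spike-in normalization, where human tags were scaled by the added fly chromatin, 5 of 6 members were covered over at least 50% of the window in both replicates, and 11.6% of all protein-coding genes were. DLX1 and DLX4 were covered over 100% in both replicates. DLX5 was covered over 95.5% and 100%, and DLX3 over 89.1% and 100%, in replicates 1 and 2. DLX2 followed at 70.1% and 74.4%, below the 4 genes above in both replicates. DLX6 was the least covered, at 57.3% and 38.6%, and did not overlap the range of any other member. The differences among DLX1, DLX3, DLX4 and DLX5 were within the spread of the replicates of DLX3 and DLX5.

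H3K4me3 divided the family differently. With DMSO, an H3K4me3 island held the annotated gene start in both replicates for DLX2, DLX3 and DLX4, 3 of 6 members, and for 55.9% of all protein-coding genes. DLX2 was the most covered member, over 92.2% and 66.5% of its window, and DLX3 followed at 80.2% and 60.8%. DLX4 reached 47.8% and 21.5%, and DLX1 46.1% and 11.5%, so these ranges overlapped. DLX5 and DLX6 held no H3K4me3 island in any of the 6 lists of that mark. H3K27me3 islands held the start of DLX1 to DLX5 in both DMSO replicates, 5 of 6 members, against 15% of all genes. Thus 3 of 6 members, DLX2, DLX3 and DLX4, had both marks at the start in both DMSO replicates, against 2.81% of all protein-coding genes. The count depends on the annotated start. With H3K4me3 islands within 1 kb of it counted, 4 members had that mark in both DMSO replicates, DLX1 among them, and 3 with GSK126. The share of all genes at that margin was not computed. The marks were mapped in separate libraries, which does not show that they sat on the same chromosomes or in the same cells.

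**Figure D1:**
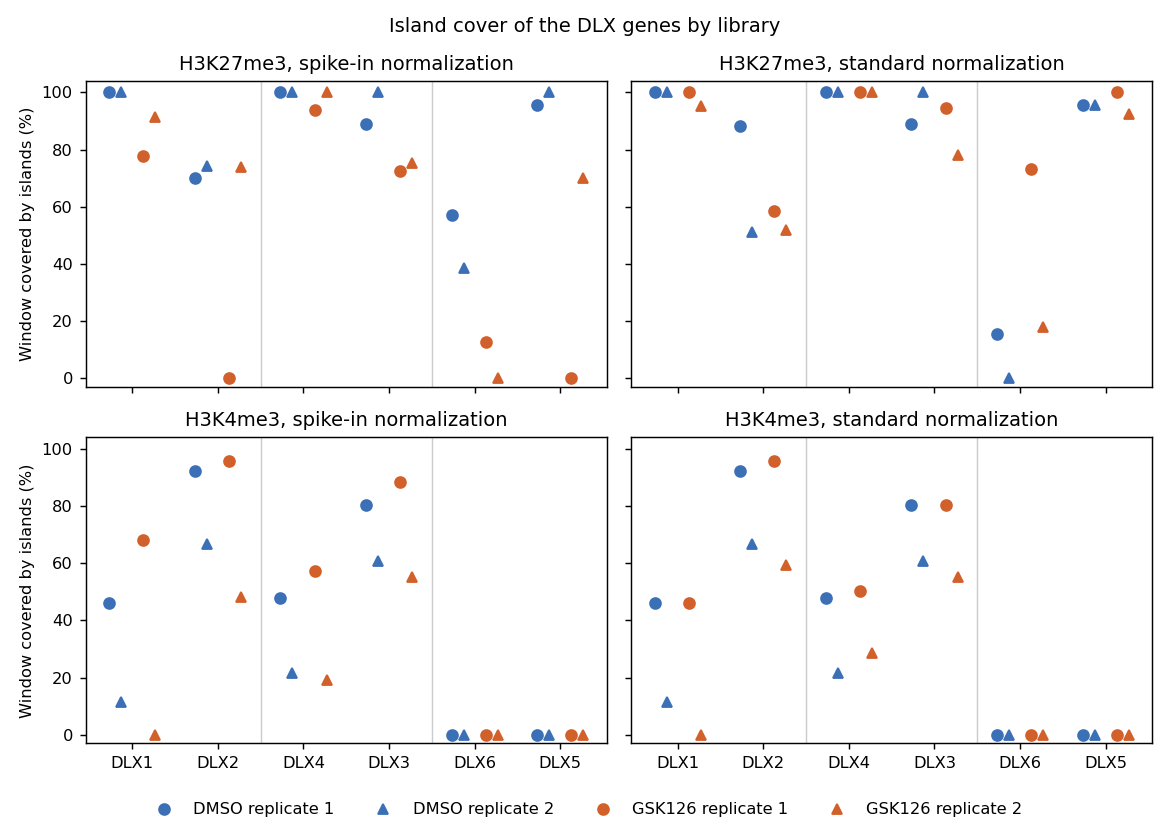
Share of each DLX window (gene body plus 2 kb upstream, in percent) inside islands of H3K27me3 (top) and H3K4me3 (bottom), with 1 point per library, for the spike-in (left) and standard (right) normalization; each H3K4me3 DMSO library has a single list, drawn in both panels. With the spike-in normalization both GSK126 points of DLX3, DLX5 and DLX6 lie below both DMSO points for H3K27me3, whereas with the standard normalization DLX6 lies higher and DLX4 stays at 100% in all 4 libraries; DLX5 and DLX6 are at 0 for H3K4me3 throughout.

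The main question of the design was how H3K27me3 responded to EZH2 inhibition, and its answer depends on how libraries were scaled. In the spike-in normalization the authors removed human tags by a factor from the D. melanogaster tags, so that a global loss of the mark is kept. In the standard normalization they removed tags until both libraries of a replicate had the same number, so that only the distribution of the mark along the genome can differ. With 2 pairs of libraries an exact sign-flip test cannot go below p = 0.5, and an exact permutation test of 2 against 2 samples cannot reach 0.05 either. No p-value is therefore given. A member was called lower or higher where its covered share moved by at least 10 percentage points in the same direction in both replicates.

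With the spike-in normalization, H3K27me3 islands covered 36.12 and 36.036 kb of the 42.036 kb of DLX windows with DMSO, and 19.433 and 28.772 kb with GSK126. The GSK126 libraries of both replicates were lower than both DMSO libraries. On the log2 scale the covered length changed by -0.61 ± 0.40 (SD, n = 2). DLX3, DLX5 and DLX6 were called lower, 3 of 6 members. By the same rule 15.7% of all protein-coding genes were called lower, and 73.6% of the 4299 genes that were covered over at least 10% with DMSO in both replicates, as all 6 members were. With 6 genes in 3 linked pairs, the count of 3 is not read as a difference from the covered genes. It was 5 where the call was made on group means. The median difference over the 6 members was -28.0 points. Over the 2339 genes covered over at least 50% with DMSO, DLX6 not among them, it was -30.8 points, with quartiles at -50.0 and -13.4. Over the 4299 genes covered over at least 10% it was -25.4 points.

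**Figure D2:**
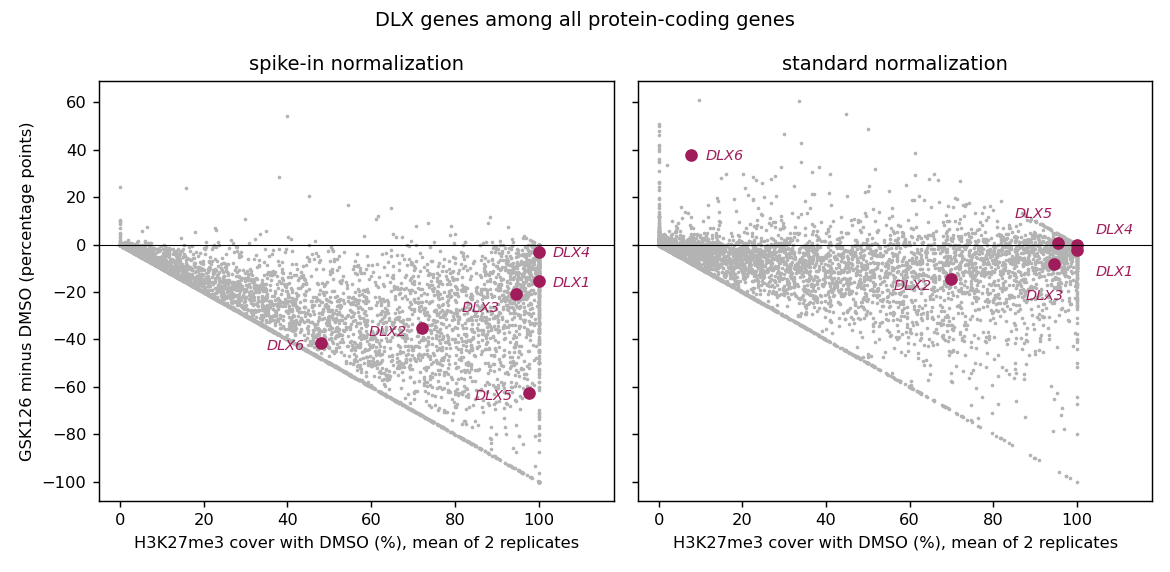
Mean H3K27me3 cover of each gene window with DMSO (x axis, percent) against the mean difference between GSK126 and DMSO (y axis, percentage points), for all 20098 protein-coding genes (grey) and the DLX genes (purple), with spike-in (left) and standard (right) normalization. The DLX genes lie within the grey cloud at a difference between -62.7 (DLX5) and -3.12 points (DLX4) on the left, and on the right DLX6 lies above almost all genes at 38.0 points.

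The members did not respond alike. DLX5 fell furthest. The first replicate went from 95.5% to no island at all, and the other kept 70.2% of the window after a cover of 100%. Its mean difference was -62.7 ± 46.5 points (SD, n = 2), so that the direction was shared and the size differed between the replicates. Where islands under 2 times the lowest score of their list were left out, the differences were -95.5 and -100 points, with a mean of -97.8. Of the covered genes, 7.51% had as large a mean drop. DLX6, at 57.3% and 38.6% with DMSO, fell to 12.7% and 0%, by -41.6 ± 4.23 points, a drop that 24.2% of covered genes reached. The call for DLX6 was lost with the same stricter minimum, at 12.7 and -38.6 points, since its DMSO islands in replicate 1 were weak. DLX3, at 89.1% and 100% with DMSO, fell to 72.5% and 75.2%, by -20.7 ± 5.76 points, with 59.9% of covered genes at as large a drop. In the gene body alone DLX3 was not called, at 0 and -19.2 points.

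DLX1, DLX2 and DLX4 were not called. DLX1 was at 100% in both DMSO libraries and at 77.8% and 91.3% with GSK126, lower in both replicates, with a difference of -22.2 points in replicate 1 and -8.72 points in replicate 2. DLX2 had no H3K27me3 island with GSK126 in replicate 1, after 70.1% with DMSO, whereas in replicate 2 it was at 74.4% with DMSO and 73.9% with GSK126. The 2 replicates of DLX2 thus did not give the same picture, and with the same stricter minimum its differences were -70.1 and -74.4 points. DLX4 kept 93.8% and 100%, after 100% in both DMSO libraries, and 93.2% of covered genes had as large a mean drop. Cover is a length, and a window stays at 100% as long as its island passes the threshold. A weaker signal inside an island would not show, so a kept cover is not evidence of a kept amount of the mark. The gene start lay inside an H3K27me3 island in both GSK126 replicates for DLX1, DLX3 and DLX4, 3 of 6 members. This held for 6.99% of all genes, 1405 in number, and with DMSO for 15%, 3005 in number. Both marks lay at the start with GSK126 for 2 of these members, DLX3 and DLX4. They did for 1.29% of all genes, 260 in number, and with DMSO for 564 genes. Shares of all genes do not tell how many genes marked with DMSO kept the mark. In the standard lists with GSK126 the start was inside an H3K27me3 island for DLX1, DLX3, DLX4 and DLX5, 4 of 6 members, against 11.4%. Both marks were there for DLX3 and DLX4, against 2.18%. In all, both GSK126 libraries of the spike-in lists lay below both DMSO libraries for DLX1, DLX3, DLX5 and DLX6, 4 of 6 members, and for 86.8% of the covered genes.

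With the standard normalization the picture was another one. The members' covered length was 33.984 and 31.592 kb with DMSO and 37.385 and 30.851 kb with GSK126, a log2 change of 0.05 ± 0.12 (SD, n = 2). None of the 6 members was called lower, while 5.02% of all genes and 25.2% of the genes covered over at least 10% with DMSO were. DLX6 was not among those covered genes, so the count beside the 25.2% is 0 of 5. The median difference over the 6 members was -1.20 points. Over the 2202 genes covered over at least 50% with DMSO, DLX6 not among them, it was -5.90 points. DLX4 was at 100% in all 4 libraries. DLX1 was at 100% and 100% with DMSO and 100% and 95.2% with GSK126, and DLX5 at 95.5% and 95.5% with DMSO and 100% and 92.5% with GSK126, so that neither separated the treatments. DLX2 was at 88.4% and 51.3% with DMSO and 58.6% and 51.8% with GSK126, and DLX3 at 89.1% and 100% against 94.6% and 78.0%, and for both the groups overlapped.

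DLX6 was the exception at equal tag number. Its cover was 15.4% and 0% with DMSO and 73.3% and 18.1% with GSK126, higher in both replicates, by 38.0 ± 28.2 points (SD, n = 2). It was called higher, as were 0.214% of all protein-coding genes, 43 in number. The 2 GSK126 libraries were above both DMSO libraries, as for 1.1% of all genes. In replicate 2 the GSK126 cover was the edge of a 9 kb island, at chr7:96639001-96648000, that reached into the end of DLX6. The DMSO island there began at chr7:96640801, past the end of the gene. The call was lost when islands with less than 2 times the lowest score of their list were left out, at 2.67 and 18.1 points, and in a window of 2 kb either side of the gene start, at 100 and 0 points. DLX6 was therefore called lower with the spike-in and higher with the standard normalization.

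The islands themselves showed how the pairs were built. At DLX4 and DLX3, a single H3K27me3 island ran over both genes with DMSO in both replicates. It was 34.8 kb long in replicate 1 (chr17:48039001-48073800) and 36.6 kb in replicate 2 (chr17:48039001-48075600), and it ranked 746 by score among 35901 islands of the list and 731 among 35522. With GSK126 and the spike-in normalization the same stretch was broken into 3 islands in each replicate, the longest 12 kb and 20.2 kb. The breaks were short, since 26.649 and 27.849 kb of the 30.637 kb region, from 2 kb upstream of one gene to 2 kb upstream of the other, were still covered. At equal tag number, 1 island of 35.2 kb remained in replicate 1, and islands of 28.2 and 5.6 kb in replicate 2.

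At DLX1 and DLX2 the DNA between the genes lost most of its cover in the spike-in lists. With DMSO and the spike-in normalization, islands of 18.8 kb in replicate 1 and 23 kb in replicate 2 ran from upstream of DLX1 across the space between the genes, and in replicate 2 the island held both starts. They covered 9.395 and 9.76 kb of the 9.76 kb between the genes. With GSK126, what was left was an island of 5.4 kb over DLX1 in replicate 1, and islands of 7.6 kb over DLX1 and 5 kb over DLX2 in replicate 2. The space between the genes was then covered over 0 and 0.965 kb. In the standard lists it was covered over 9.395 and 7.995 kb with DMSO and over 9.395 and 5.595 kb with GSK126, the same length in replicate 1. The island over DLX1 lay across the RefSeq promoter window printed above in all 8 lists of the mark, so that this sequence stayed inside an H3K27me3 island under each treatment and normalization. The DLX2 window lay inside one in all lists except spike-in GSK126 replicate 1 and standard GSK126 replicate 2, where its cover was 0. The 300-base DLX6 window was covered over 38% in spike-in DMSO replicate 1 and 100% in standard GSK126 replicate 1. In the remaining lists its cover was 0.

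At DLX6 and DLX5 the space between the genes kept an island in both replicates while the cover of both genes fell. With GSK126 and the spike-in normalization, an island of 7.2 kb was left in replicate 1, at chr7:96639401-96646600, and one of 7.2 kb in replicate 2, at chr7:96640601-96647800, beside a 4.6 kb island over DLX5 in replicate 2. They covered 66.8% and 77.0% of the DNA between the genes, after 83.9% and 100% with DMSO. The covered length of the 2 gene windows together was 10.55 and 9.443 kb with DMSO and 0.952 and 4.6 kb with GSK126, a log2 change of -2.25 ± 1.72 (SD, n = 2). For DLX1 and DLX2 the same measure was -0.54 ± 0.64, and for DLX4 and DLX3 it was -0.18 ± 0.0020. The replicates were at -3.47 and -1.04 for DLX6 and DLX5, below those of both other pairs, whereas those of DLX1 and DLX2, at -0.995 and -0.085, lay on both sides of DLX4 and DLX3. In the standard lists DLX6 and DLX5 lay above both other pairs instead, at 0.70 and 0.24. DLX1 and DLX2, at -0.21 and -0.046, overlapped DLX4 and DLX3, at 0.038 and -0.15.

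**Figure D3:**
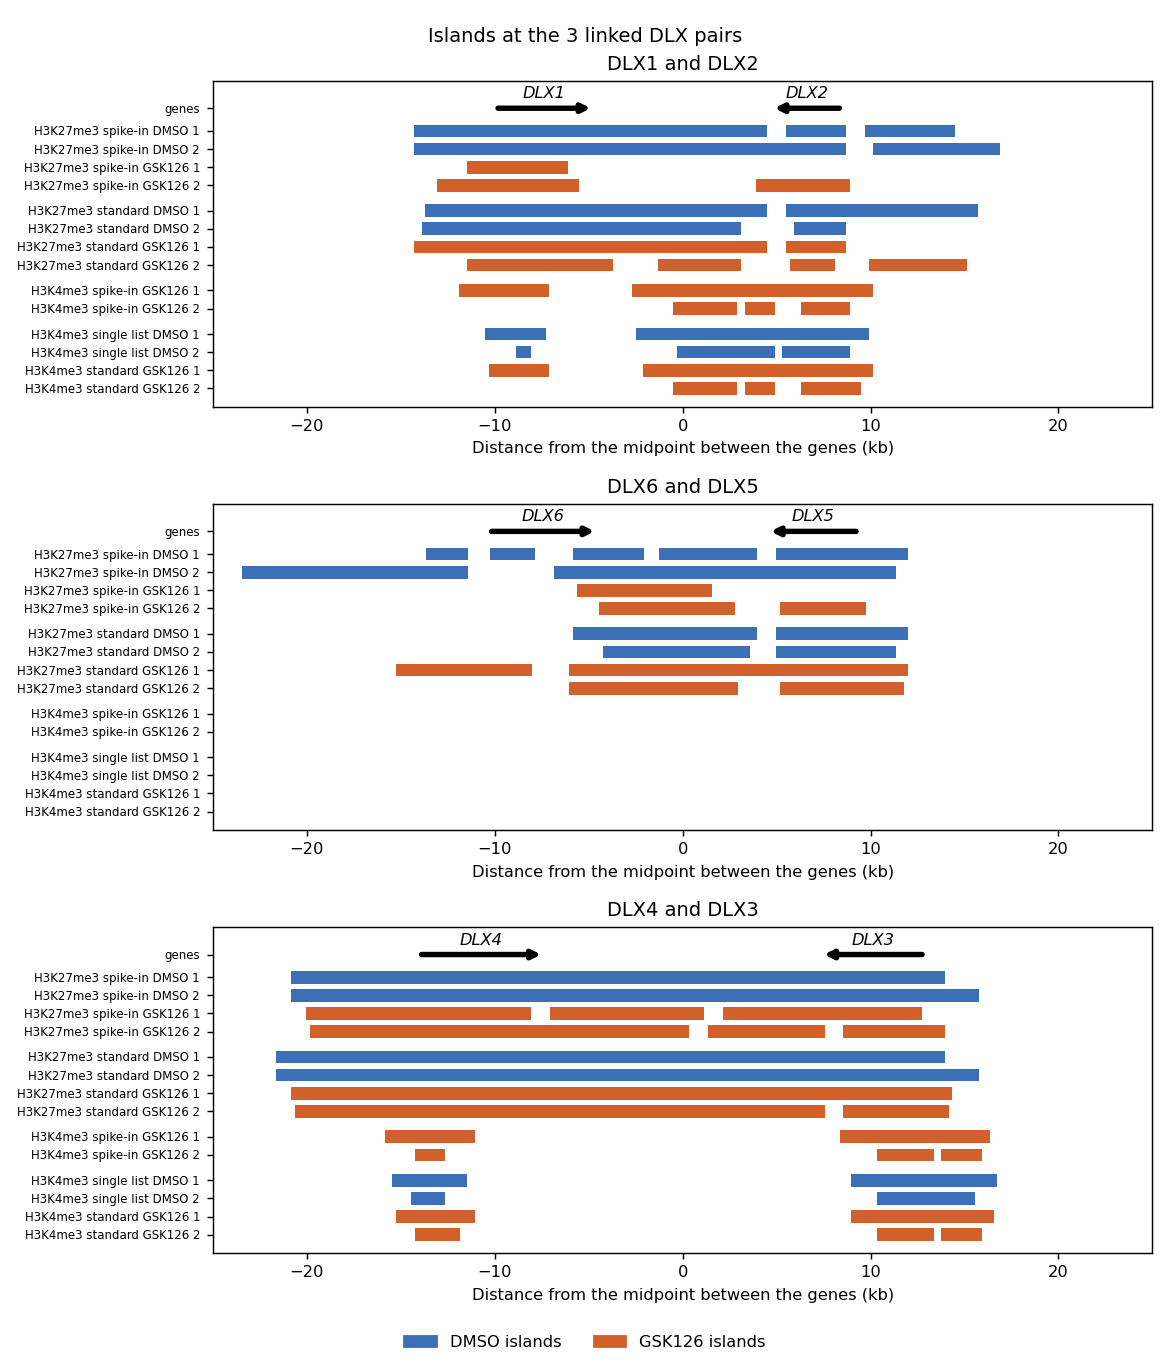
Islands at the 3 linked DLX pairs in each list, drawn to scale in kb from the midpoint between the genes (x axis), with genes as arrows in the direction of transcription, DMSO islands in blue and GSK126 islands in orange; the number after the treatment is the replicate. With the spike-in normalization the DMSO island over DLX4 and DLX3 is a single bar in both replicates and 3 bars with GSK126, the space between DLX1 and DLX2 empties, and a 7.2 kb island stays between DLX6 and DLX5.

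An antisense transcript and a divergent transcript are annotated beside these pairs. DLX6-AS1, a long noncoding RNA gene at chr7:96584453-96643400 that runs across DLX6 on the opposite strand, starts in the space between DLX6 and DLX5. Its window was covered by H3K27me3 over 26.9% and 31.5% with DMSO and 14.1% and 19.0% with GSK126 in the spike-in lists. In the standard lists 12.2 and 13.2 kb of it were covered with DMSO, and 21.4 and 11.6 kb with GSK126, where the groups overlapped. It held no H3K4me3 island in any list. DLX2-DT, at chr2:172967734-172974710, starts just upstream of DLX2 and is read away from it. Its H3K27me3 cover was 78.7% and 84.4% with DMSO and 29.0% and 27.5% with GSK126 in the spike-in lists, lower in both replicates, and 100% and 73.3% with DMSO and 75.5% and 76.5% with GSK126 in the standard lists, where the groups overlapped. Islands carry no strand, so signal over a pair of overlapping genes cannot be assigned to either one.

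H3K4me3 at the DLX genes showed no call in either direction. Over all members it covered 18.023 and 10.623 kb with DMSO, 21.156 and 8.223 kb with GSK126 in the spike-in lists, and 18.423 and 9.623 kb in the standard lists. The log2 changes were -0.07 ± 0.42 and -0.06 ± 0.12 (SD, n = 2). None of the 6 members was called lower or higher in either normalization, and of all genes 1.05% were called lower and 0.0498% higher in the spike-in lists, and 1.03% lower and 0.0448% higher in the standard lists. The replicates differed more than the treatments: each of DLX1, DLX2, DLX3 and DLX4 had more cover in both libraries of replicate 1 than in both of replicate 2. Over whole lists, H3K4me3 islands covered 70.8 to 85.2 Mb in replicate 1 and 34.9 to 40.0 Mb in replicate 2. With GSK126, DLX2, DLX3 and DLX4 again had an island at the start in both replicates, 3 of 6 members, against 55.1% of all genes in the spike-in and 55.6% in the standard lists.

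In replicate 1 the longest H3K4me3 island of the family lay over DLX2. In DMSO replicate 1 it was 12.4 kb long, at chr2:172956801-172969200, reaching from the space between the genes over the whole of DLX2, and it ranked 42 by score among 23875 islands. In GSK126 replicate 1 it was 12.8 kb in the spike-in and 12.2 kb in the standard list. In replicate 2 the same stretch held islands of 5.2 and 3.6 kb with DMSO, and 3 shorter ones with GSK126. The 5.2 kb island, at chr2:172959001-172964200, lay between the genes but for its last bases. In the same library the DLX3 island was also 5.2 kb long. The DLX2 promoter window printed above was inside an H3K4me3 island in all 6 lists, the DLX1 window only in the lists of replicate 1, and the DLX6 window in none.

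The share of H3K4me3 that lay under H3K27me3 was lower with GSK126, in the spike-in lists, at both pairs that carried H3K4me3. At the DLX1 and DLX2 pair, 87.2% and 97.9% of the H3K4me3 island length also lay in H3K27me3 islands with DMSO, and 25.1% and 47.4% with GSK126 in the spike-in lists. The standard lists gave 93.6% and 72.9% with DMSO, then 84.4% and 63.4% with GSK126, so that the groups overlapped. At DLX4 and DLX3 the spike-in lists gave 91.9% and 100% with DMSO, then 82.2% and 85.9% with GSK126. The standard lists gave this pair 91.9% and 100%, then 96.1% and 90.8%, again with overlap. In the spike-in lists the treatments did not overlap at either pair, and the gap was wider on chromosome 2. Over whole spike-in lists, H3K27me3 islands covered 275 and 300 Mb with DMSO and 127 and 133 Mb with GSK126. The same share over all H3K4me3 islands was not computed, so the fall is not shown to be particular to these pairs. H3K27me3 and H3K4me3 libraries were matched here by replicate number alone.

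The island score gives a second measure, which weighs how strongly an island is marked and not only its length. It sums the improbability of the tag counts over the windows of an island and grows with the number of tags, so it was set side by side only within a replicate of the standard lists, where that number was equal. At DLX1 and DLX2 the summed H3K27me3 score was 995 and 849 with DMSO and 753 and 523 with GSK126, lower in both replicates, by -0.55 ± 0.21 on the log2 scale (SD, n = 2). At DLX6 and DLX5 it was 366 and 350 with DMSO and 519 and 493 with GSK126, higher in both, by 0.50 ± 0.0095. At DLX4 and DLX3 it was 2236 and 2775 with DMSO and 2723 and 4238 with GSK126, higher in both, by 0.45 ± 0.23. The total score of the list moved by 0.55 ± 0.24, but it is a sum over islands that were called separately in each library. Over 4114 genes with an island in all 4 lists, the median ratio of the summed score was 1.01 in replicate 1 and 0.927 in replicate 2. The pairs on chromosomes 7 and 17 lay above these medians in both replicates, and the pair on chromosome 2 below them. The medians are over single genes, and a pair score is summed over a whole region. The ratios of the list total were 1.30 and 1.65. The chromosome 17 pair, at 1.22 and 1.53, lay below them in both replicates. The chromosome 7 pair, at 1.42 and 1.41, lay above in replicate 1 and below in replicate 2. Of the 5101 genes with an island in both DMSO replicates, 51% had a lower and 31.4% a higher summed score in both replicates. Both directions were thus frequent among marked genes. By gene, DLX1 was lower in both replicates, DLX3 and DLX4 were higher, largely from an island they share, and DLX2 went in opposite directions. DLX5 was at 111 and 107 with DMSO and at 431 and 107 with GSK126, a rise in replicate 1 alone. In that library the score was that of 1 island of 18 kb over both DLX6 and DLX5. With DMSO the DLX5 island there, at 111, was separate from one at 255 that ran from DLX6 into the space between the genes. How much of the rise lay at DLX5 itself cannot be told.

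For H3K4me3 at equal tag number, the score at DLX1 and DLX2 was 0.850 and 0.807 times that with DMSO, lower in both replicates, by -0.27 ± 0.053 on the log2 scale (SD, n = 2). At DLX4 and DLX3 the ratios were 0.969 and 1.06, on both sides of 1, and for the whole list they were 1.03 and 0.927. Of the 13669 genes with an H3K4me3 island in both DMSO replicates, 27.4% had a lower and 27% a higher summed score in both replicates, so a shared direction was common.

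**Figure D4:**
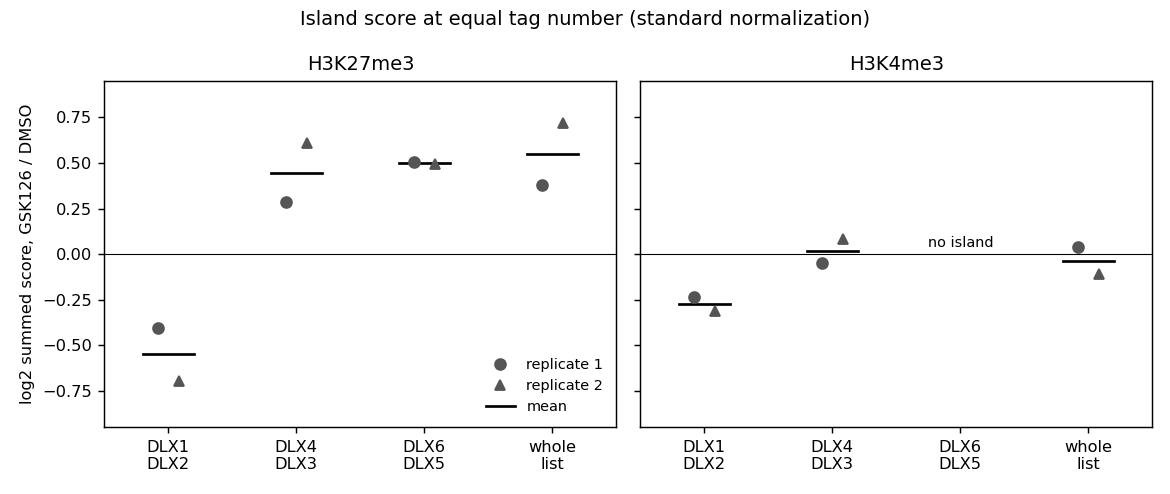
Log2 ratio of the summed island score with GSK126 to that with DMSO (y axis) at each DLX pair and over the whole list, for H3K27me3 (left) and H3K4me3 (right), standard normalization, with 1 point per replicate and a bar at the mean. For H3K27me3 the DLX1 and DLX2 pair lies below 0 at a mean of -0.55, and the other pairs lie at 0.45 and 0.50, near the list at 0.55; DLX6 and DLX5 had no H3K4me3 island.

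Genes linked to the DLX factors in development were described from lists of regulators and targets. Of 8 genes upstream of DLX, 2 were covered by H3K27me3 over at least 50% with DMSO in both replicates and 1 was called lower in the spike-in lists. This was MSX1, a homeobox gene of jaw and limb, which went from 54.4% and 76.7% with DMSO to 0 in both GSK126 libraries. In the standard lists MSX1 was at 12.9% and 32.0% with DMSO and at 16.1% and 86.2% with GSK126. There it was higher within each replicate, while the groups overlapped. GSX1, a homeobox gene of the forebrain that acts before DLX2, stayed at 100% in all 8 lists of the mark. At equal tag number none of the 8 was called lower, and MSX2, a relative of MSX1, was called higher, from 0 and 19.2% to 41.1% and 100%. TP63, EDN1, EDNRA and BMP4 held no H3K27me3 island.

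Of 10 genes downstream of DLX, 4 were covered over at least 50% with DMSO, 5 were called lower in the spike-in lists and none in the standard lists. SP7, which drives bone formation, was the 1 gene of these with both marks at its start in both DMSO replicates. GBX2, a homeobox gene of the forebrain and hindbrain, went from 52.8% and 80.6% to 19.4% and 52.8% H3K27me3 cover in the spike-in lists. GAD1, which makes GABA in interneurons, went from 35.6% and 34.0% to 22.8% and 0. RUNX2 and NRP2 held no H3K27me3 island in any list. The members of these lists are not replicates of the family, and their counts are read against the 15.7% of all genes and the 73.6% of covered genes given above.

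Marks of the neighbourhood did not follow the DLX genes everywhere. Of 13 protein-coding genes within 200 kb of a pair, 3 were covered by H3K27me3 over at least 50% with DMSO, and all 3 lay near DLX4 and DLX3. METAP1D, a peptidase gene that ends 2.31 kb from DLX1, was covered over 2.56% in both DMSO libraries. SDHAF3, the one neighbour of DLX6 and DLX5, and HAT1, near DLX1, held none. Near DLX4 and DLX3, SAMD14, SGCA, COL1A1, FAM117A and TAC4 were called lower in the spike-in lists, for example SGCA from 66.5% and 62.9% to 0 in both. These 5 of 13 neighbours compare with 15.7% of all genes, and with 73.6% of covered genes for the 5 neighbours that were covered over at least 10%. In the standard lists 2 of 13, FAM117A and SGCA, were called lower, against 5.02% of all genes. ITGA3, an integrin gene 60.744 kb from this pair, held no H3K27me3 island and an H3K4me3 cover of 45.7% and 29.2% with DMSO.

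The linked homeobox genes IRX1 to IRX6 are given for comparison. With DMSO, IRX1 and IRX4, 2 of these 6 genes, were covered by H3K27me3 over at least 50% in both replicates, beside 5 DLX genes, and none of the 6 had both marks at its start, beside 3 DLX genes. For H3K27me3, 2 IRX and 3 DLX genes were called lower in the spike-in lists, where 15.7% of all genes and 73.6% of covered genes were, and 2 IRX and 0 DLX genes in the standard lists, where the shares were 5.02% and 25.2%. For H3K4me3, 1 IRX and 0 DLX genes were called lower in either normalization. IRX3 and IRX5 held H3K4me3 and no H3K27me3, and IRX4 was covered over 100% by H3K27me3 with DMSO and held no H3K4me3. These are counts over few genes that share loci, and no difference between the families was tested.

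The genes whose cover over the 14 lists was most like that of a member, more than 200 kb away, were found by the mean absolute difference in covered share. For DLX4 these were LKAAEAR1 at 2.81 points and CALHM6 at 3.02 points, and for DLX5 FAM205C at 2.18 and OLIG3 at 2.89 points. DLX1 was nearest to PYDC1 at 4.75 points and CCDC185 at 6.98, and DLX6 to TMEM202 at 5.24 and ZNF660 at 5.82. DLX2 and DLX3, the members with the most H3K4me3, had no close match. Their nearest genes were MARCKSL1 at 11.3 and PRRT2 at 12.3 points for DLX2, and TMEM121 at 10.2 and MAGEA12 at 10.9 points for DLX3. Within the family the closest members were DLX1 and DLX4, at 7.41 points, which lie on different chromosomes. The linked partners were 41.6 points apart for DLX1 and DLX2, 20.8 for DLX3 and DLX4, and 32.8 for DLX5 and DLX6.

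Over the whole series, H3K27me3 islands covered 275 and 300 Mb with DMSO and 127 and 133 Mb with GSK126 in the spike-in lists, and 279 and 258 Mb against 241 and 189 Mb in the standard lists. At the loci that the study used as controls, MYT1 was covered over 92.1% and 94.9% with DMSO and 82.8% and 87.5% with GSK126, and CCND2 over 98.2% and 98.2% against 97.7% and 98.2%, spike-in lists. The paper's ChIP-qPCR, which measures amount and not covered length, showed reduced H3K27me3 at the MYT1 promoter with GSK126. The start of 5 of 6 epithelial markers (KRT8, KRT18, KRT19, CDH1 and EGFR) lay in an H3K4me3 island in both DMSO replicates, and EPCAM's annotated start did not, although 24.1% and 6.30% of its window was covered. None of 4 annotated markers of leukocytes and fibroblasts had one. The lists hold no tag counts, so the depth behind a covered share is unknown and no counting interval was given.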

How the data were processed

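H3K27me3 and H3K4me3 ChIP-seq of PC9 cells was analysed from 14 island lists of 8 libraries. The authors aligned tags to hg19 with BWA, kept unique tags without duplicates, removed human tags at random by either normalization, and called islands in each library with SICER (window 200 bp, gap 600 bp for H3K27me3 and 200 bp for H3K4me3, E-value 1, random background, no pooling). SAMtools 0.1.18 is named in the submitters' processing notes. The value deposited by the authors for each island is the SICER score, which depends on the tag number. Tag counts were not analysed here, so depth is unknown.

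Genes came from GENCODE 44 on GRCh37, and the files' coordinates lay within its chromosomes. Python 3.11.15 with NumPy 2.4.6 gave the covered bases and Matplotlib 3.10.9 the plots; the code was tested on simulated islands. Groups came from the labels, replicate numbers from accession order, and treatments were compared within replicates because the authors removed tags within them; the study calls them biological replicates, which the labels do not state. Values are means ± SD of 2 replicates, without p-values. The text names the members, their annotated antisense or divergent transcripts, protein-coding genes within 200 kb, listed upstream, downstream, IRX, control and marker genes, and the 2 genes with the nearest cover profile. Members and lists were chosen with earlier results of these data known. Alternatives were other windows, score and length minimums, dropping a replicate, no replicate block, and the standard DMSO lists against the spike-in GSK126 lists. A planned comparison of homeodomain sequences was not run, since no protein sequences were used here. Some listed genes are not reported here. PECAM1, a listed endothelial marker, was not matched in the annotation used.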

Additional observations from a re-analysis of the deposited data

How the results depend on the processing

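Over 13 results and 92 alternatives, 4 reversed their direction and 7 moved beyond the spread of the replicates or by over 1.5 times in a count; the other 81 did neither, although some changed in size. With no replicate block, that is without the pairing of libraries by replicate and with the call made on group means, 5 members in place of 3 were lower in H3K27me3 in the spike-in lists and 1 in place of 0 in the standard lists, and the log2 change of H3K4me3 cover in the spike-in lists was 0.036 in place of -0.07; the block changed no other call. Leaving out one replicate gave 3 to 5 lower members for H3K27me3 in the spike-in lists (5 without replicate 2), 1 to 1 in the standard lists, and for H3K4me3 0 to 2 in the spike-in and 0 to 1 in the standard lists (2 and 1 without replicate 1); a single replicate then makes the call. The log2 change of H3K27me3 cover in the spike-in lists, -0.61, was -0.32 without replicate 1 and -0.89 without replicate 2, and -0.47 with 2 lower members (DLX3 and DLX5, no longer DLX6) where the DMSO lists of the standard normalization were used. That of H3K27me3 cover in the standard lists ranged from -0.034 (without replicate 1) to 0.14, that of H3K4me3 cover from -0.37 to 0.23 (without replicate 2) in the spike-in and from -0.14 to 0.032 (without replicate 2) in the standard lists, so none of the latter 3 has a direction that both replicates share. Among members in the spike-in lists, DLX2 was called lower and DLX6 was not where islands under 2 times the lowest score of their list, or under 1 score floor for all lists, were left out, DLX1 was called lower in the gene body alone, and DLX3 was not. The cause was not tested. The unknown depth limits what a missing island shows: it says that no stretch passed SICER's threshold, not that the mark was absent.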
